A study of Mus musculus with 4 samples.

Results

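The cells described here are stromal cells of mouse long bone, called fibroblasts by their working name, that carry transcripts of *Dpt* (dermatopontin, a dermatan sulfate-binding matrix protein), *Clec3b* (tetranectin, a secreted C-type lectin) or *Pi16* (peptidase inhibitor 16). A barcode was taken as such a fibroblast when these 3 genes together had at least 3 UMIs. It also had to hold no UMI of *Cdh5*, *Ptprc* or *Adipoq*, at most 2 UMIs of *Angptl7* and *Slurp1* together and at most 2 of *Msmp* and *Chil1* together. Per 10000 UMIs it had to show under 200 of *Bglap*, under 20 of *Col10a1* and under 50 of *Col2a1*. Of 24739 barcodes with at least 1000 UMIs, at least 800 detected genes, under 15% mitochondrial UMIs and under 5% hemoglobin UMIs, 273 met this rule. They came from all 4 libraries, with 63 and 75 in the 2 libraries of *Lats2* mutants and 64 and 71 in the 2 control libraries. The cells were thus chosen by the measured levels of the genes in the rule, which are given below as a description.

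The 4 libraries came from droplet scRNA-seq of cells depleted of blood lineages from femur and tibia from 12-week-old C57/BL6 mice. Mutants, labelled Lats2iECKO, carried loxP-flanked *Lats2* and the tamoxifen-inducible *Cdh5(PAC)-CreERT2* transgene, which is driven in endothelial cells (ECs), so the fibroblasts themselves were not the cells targeted. Controls were littermates without Cre. The labels call them untreated, whereas the methods of the study give both genotypes tamoxifen. How many animals went into each library was not given in the sources used here, so p-values measure the spread between libraries, which may be in part technical. The libraries held 69636600 to 85899079 UMIs and 6771 to 8437 barcodes of at least 1000 UMIs. The fibroblasts had median depths of 8158 and 8809 UMIs in the mutant libraries and 6614 and 7527 in the controls. Between libraries, 66 kept barcodes were shared by sequence, and no pair of libraries shared a fibroblast of the rule. All 4 libraries held transcripts of Y-linked genes.

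Fibroblasts of connective tissue secrete and remodel collagens, proteoglycans and elastic fibre proteins. In many organs a *Dpt*-expressing population spans fibroblasts around larger vessels and in fasciae, where *Pi16*, *Cd34*, *Ly6a* and *Cd55* mark an adventitial type with progenitor properties. In bone such cells sit in the periosteum, in the sheaths of large vessels and in joint tissues, apart from the reticular stromal cells of marrow that make *Cxcl12* and *Adipoq*. Complement components, IGF1, the immediate early transcription factors and hypoxia-inducible enzymes are made by fibroblasts of many tissues.

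*Dpt* was detected in 90.1% of the 273 cells, *Clec3b* in 67.4% and *Pi16* in 7.69%, that is in 21 cells. All 3 genes were found together in 12 cells. The 21 *Pi16*-positive cells were unevenly spread, with 3 and 2 in the mutant libraries and 4 and 12 in the controls, and *Pi16* stood at 16.0 and 13.6 CPM (UMIs scaled to 1000000 over the summed fibroblasts) in mutants and at 26.9 and 162 CPM in controls. Beside the fibroblasts, *Cdh5*-positive barcodes, with median depths of 6299.5 to 7802 UMIs, showed *Dpt* in 0.268% to 1.02% of cells and *Clec3b* in 0.204% to 0.794%, but *Pi16* in 7.54% and 3.65% of mutant and 3.35% and 2.02% of control cells. In both mutant libraries the share of fibroblasts with *Pi16* (4.76% and 2.67%) was below that of *Cdh5*-positive barcodes. That share is not a background level, since *Cdh5*-positive barcodes held *Pi16* at 5.63 to 21.5 CPM. Reticular stromal cells held at most 1.25 CPM. Free RNA, estimated from barcodes with few UMIs, could supply 0.0275 and 0.0309 CPM of *Pi16* in the mutant fibroblasts. Their *Pi16* levels rest on 10 UMIs in each mutant library, in 3 and 2 cells. With every cell thinned to 3000 UMIs, 14.7% of the fibroblasts of control 2 still held *Pi16*, against 1.72% to 3.28% in the other 3 libraries. *Pi16* thus marked few of the cells outside control 2.

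Against all other kept barcodes, the genes that stood out most in the fibroblasts after *Clec3b* and *Dpt* were *Col3a1* (collagen III), *Col14a1* (a fibril-associated collagen), *Mfap5* (a microfibril protein), *Tnxb* (tenascin X), *Igfbp6*, *Tppp3*, *Ecm1* and *S100a4*. *Col3a1* had 7219 and 7158 CPM in the control fibroblasts and 239 and 262 CPM in the other barcodes of the same libraries. *Col14a1* had 500 and 550 CPM against 2.67 and 2.19 CPM. *Dcn*, the small leucine-rich proteoglycan decorin, was detected in 98.1% of the cells, at 12938 and 11283 CPM in mutants and at 12909 and 13736 CPM in controls, so the libraries of both genotypes overlapped. *Gsn* (gelsolin) had 7711 to 10278 CPM in the fibroblasts against 154 to 259 CPM in reticular stromal cells of the same libraries, whereas *Pdgfra*, a growth factor receptor of stroma, had 244 to 339 CPM against 316 to 359 CPM. *Prg4*, the joint lubricant lubricin, had 15009 to 17790 CPM in the fibroblasts, a level within the 13786 to 21270 CPM of *Angptl7*/*Slurp1*-positive cells. *Dpt* itself stood at 507 and 560 CPM in mutants and 833 and 720 CPM in controls, and *Clec3b* at 814 and 619 against 798 and 945 CPM.

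Markers of other cell types that could enter the rule were present to different extents. The 4 leukocyte markers summed to at most 1.80 CPM, with *Cd52* at 0 in all libraries and *Ptprc* at 0 by the rule, and the 5 endothelial markers to between 3.21 and 24.8 CPM, with *Cdh5* at 0 by the rule. The 4 mural cell markers, all present, summed to 107 and 213 CPM in mutants and 147 and 372 CPM in controls, where free RNA could supply 7.12 to 10.1 CPM. The 4 erythroid markers summed to 547 and 657 against 163 and 197 CPM, and they are among the genes from which free RNA was estimated. Skeletal muscle markers reached at most 5.45 CPM with *Acta1* and *Pax7* at 0. All 5 chondrocyte markers were present and summed to 1384 and 1265 CPM in mutants against 440 and 482 CPM in controls, of which free RNA, estimated from the 10 to 100 UMI barcodes, could supply 114 to 164 CPM. *Col2a1*, which the rule limits, made up part of these sums, and the other 4 summed to 717 and 638 against 192 and 204 CPM. Osteoblast markers summed to 1138 and 3204 CPM in mutants and 1182 and 1036 CPM in controls, of which *Ibsp* (bone sialoprotein) had 1007 and 2938 CPM in mutants and 554 and 446 CPM in controls. Reticular markers summed to 374 and 489 against 1201 and 650 CPM, mostly as *Cxcl12*, with *Adipoq* at 0 by the rule.

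The 273 cells were not of 1 kind. Clustering them without 546 genes that had an adjusted p of 0.05 or less between genotypes, with or without the filter on low counts, gave 6 clusters of 67, 60, 48, 45, 44 and 9 cells. Levels in them are descriptions, since the same cells formed the clusters. Cluster 1, led by *Cygb*, *Dkk2*, *Tnfaip6* and *Apod*, had the highest *Cxcl12* (1858 CPM), *C3* (983 CPM), *Igf1* (1283 CPM) and *Ebf1* (2778 CPM) of the clusters. Cluster 2, led by *Mustn1*, *Ccn3* and *Cd55*, shared with cluster 1 the high levels of *Cd34* (495 and 541 CPM) and *Ly6a* (1307 and 1388 CPM). Cluster 3, led by *Uts2r*, *Thbs4* and *Lum* among others, had *Dcn* at 27012 CPM. The 3 clusters held *Clec3b* at 1132 to 1418 CPM.

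Clusters 4 to 6 met the rule mainly through *Dpt*, with *Clec3b* at 66.0, 172 and 49.6 CPM. Cluster 4 was led by *Casr*, *Col9a2* and *Col11a2*, and cartilage genes were high in it: aggrecan (*Acan*) stood at 1055 CPM, chondroadherin (*Chad*) at 5874 CPM and *Sox9* at 679 CPM, beside *Prg4* at 22016 CPM and *Cd34* at 20.6 CPM. Its profile goes against a fibroblast label. Cluster 5, led by *Clic5*, *Hbegf* and *Col22a1* among others, had *Prg4* at 56026 CPM and *Fn1* (fibronectin) at 25614 CPM. The 9 cells of cluster 6, led by *Efna5*, *Fat3* and *Runx2*, had *Col1a1* at 31938 CPM and *Ibsp* at 9106 CPM, genes of osteoblasts. The name fibroblasts stands here for all 273 cells that met the rule, clusters 4 and 6 included. Over the 273 cells, levels of *Cd34* and *Ly6a* had a Spearman correlation of 0.581, those of *Acan* and *Chad* of 0.513 and those of *Clec3b* and *Prg4* of -0.386, but the cells share libraries and depth, and these are descriptions.

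**Figure D1:**
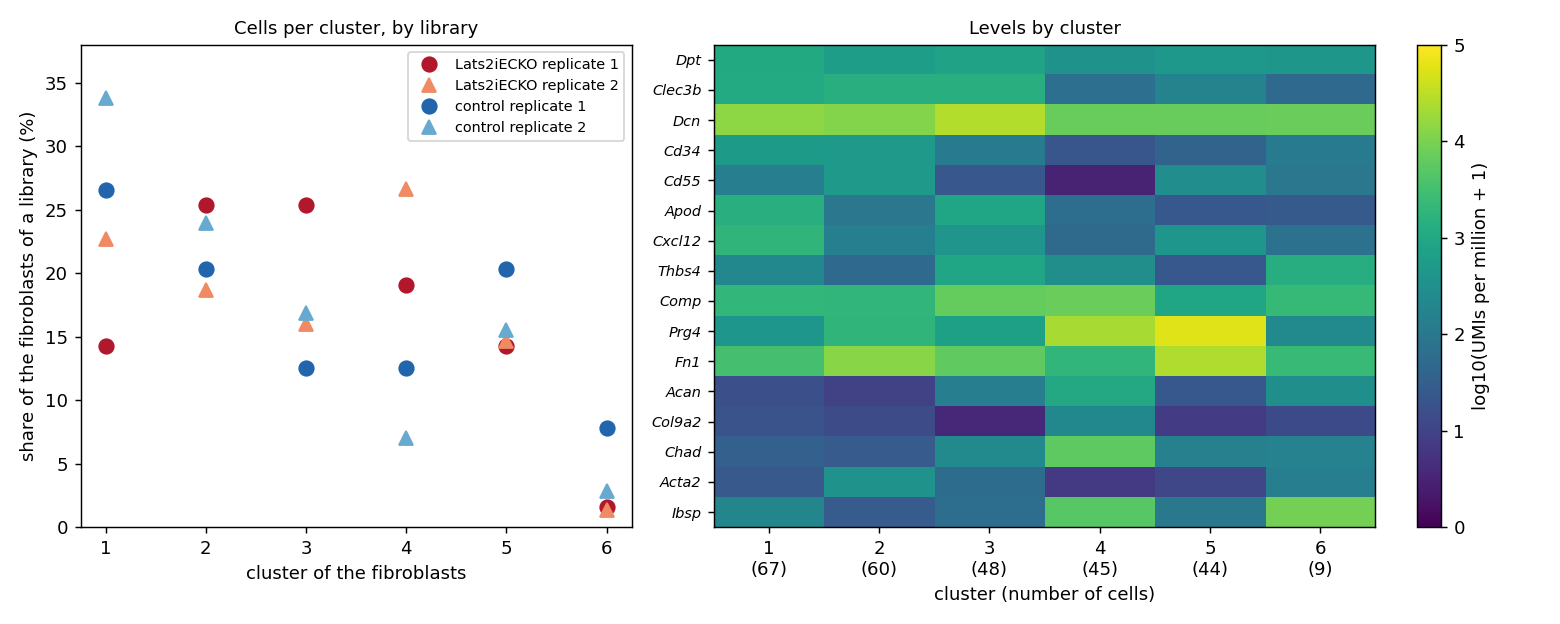
Left, share of the fibroblasts of each library (percent, y axis) in each of 6 clusters (x axis), with 1 point per library. Right, level of 16 genes by cluster as log10 of CPM + 1. Cluster 4, high in Acan, Col9a2 and Chad, held 19.0% and 26.7% of the mutant and 12.5% and 7.04% of the control fibroblasts, while cluster 1, high in Cxcl12 and Apod, held 14.3% and 22.7% against 26.6% and 33.8%.

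The first comparison asked whether the fibroblasts made up another share of the barcodes in mutants. They were 1.23% (95% exact Clopper-Pearson interval 0.944% to 1.57%) and 1.27% (1.00% to 1.59%) of the kept barcodes in the mutant libraries and 0.932% (0.718% to 1.19%) and 1.04% (0.812% to 1.31%) in the controls, where the intervals cover counting error only. Both mutant libraries lay above both controls, by 0.264 percentage points on average. The other kept barcodes differed as well, with 462 and 565 reticular stromal cells in mutants and 1713 and 1697 in controls. A share without those cells was not tested, so a change in the fibroblasts and a change in the rest cannot be told apart. A 2-sided exact permutation test gave p = 0.33, below which a design of 2 against 2 libraries cannot go. With every barcode thinned to 2000 UMIs before the rule was applied, the shares were 0.681% and 0.687% against 0.707% and 0.590%, and the libraries overlapped. At the threshold of the rule, 9, 17, 7 and 13 fibroblasts had exactly 3 UMIs of the 3 genes, and 11, 12, 10 and 17 barcodes that met all other parts of the rule had 2, in mutant 1, mutant 2, control 1 and control 2. The barcodes with 3 UMIs had 4814 to 10656 CPM of *Dcn* and those with 2 had 4266 to 7721 CPM.

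The limits on other genes did not act alike in the libraries. Of the barcodes with at least 3 UMIs of the 3 genes, numbering 119, 148, 96 and 108, the *Col2a1* limit removed 14 and 33 in mutants and 2 and 6 in controls, and the *Angptl7* and *Slurp1* limit removed 21 and 35 against 17 and 18. Among the clusters, cluster 4 took 12 and 20 cells in mutants and 8 and 5 in controls, a difference of 13.1 percentage points of the fibroblasts (2-sided exact permutation p = 0.33). Cluster 1 moved the other way, by -11.7 points (p = 0.33 in the same exact test). The genotype comparison below is of sums over all fibroblasts of a library, in which a change in the mix of these clusters and a change within a cluster cannot be told apart. Many results below are followed by their value in the 228 fibroblasts outside cluster 4 (51, 55, 56 and 66 cells), and in places by values in fibroblasts with no *Acan* UMI (41, 44, 51 and 59 cells), 2 settings added after the data were seen.

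*Lats2*, the Hippo pathway kinase deleted in ECs, was measured in every library. In *Cdh5*-positive barcodes it stood at 90.4 and 94.5 CPM in mutants and 128 and 116 CPM in controls, a log2 fold change of -0.31 (edgeR, adjusted p = 0.0144), and counts over the whole gene include transcripts without the deleted part. *Lats1*, the related kinase that was not targeted, had 26.8 and 25.9 CPM against 38.6 and 34.1 CPM there, a change of -0.38 on the log2 scale (edgeR, adjusted p = 0.0295). In the fibroblasts *Lats2* had 33.7 and 43.6 CPM in mutants and 33.1 and 37.9 CPM in controls, and the libraries overlapped. The *Cre-ERT2* transcript had no UMI in the fibroblasts of any library, which allows up to 4.81 and 4.09 CPM in the mutant libraries. In *Cdh5*-positive barcodes it had 52.7 and 46.2 CPM in mutants and 0.943 and 0.793 CPM in controls.

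Between genotypes the fibroblast sums were compared over 5840 genes. With edgeR's quasi-likelihood test, 146 genes (2.50%) were higher and 84 (1.44%) lower in mutants (adjusted by Benjamini-Hochberg over all genes tested to 0.05 or less, and with a change of 1 or more log2 units). Together these were 3.94%, and 5.62% of the genes passed by the adjusted p alone. Both mutant libraries lay above both controls for 19.4% of the genes tested and below both for 31.0%. Of the 146 higher genes, 73 were found in 20% or more of the cells of mutants alone. Of the 84 lower genes, 34 were so in controls alone. Both sets could be tested only through the genotype in which they were high. List counts, medians and tests of single genes below include such genes. Among the 4761 genes found in 20% or more of the cells of both genotypes, 73 (1.53%) were higher and 50 (1.05%) lower. The calls include *Col2a1* and *Col10a1* (higher) and *Bglap* (lower), which the rule limits and whose tests are not read, and 144 and 83 are left without them. DESeq2, the tool of the study, called 80 and 28 genes (1.37% and 0.479% of the 5840) by the same limits. It gave an adjusted p for only 4028 of the 5840 genes, and the rest could not be called with it. With each library left out in turn, the lowest counts were 110 higher, without mutant 2, and 50 lower, without mutant 1. Log levels of mutant 1 and mutant 2 correlated at 0.957 across genes, those of the 2 controls at 0.95, and those of mutants with controls at 0.899 to 0.918.

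In the fibroblasts outside cluster 4 the counts fell to 56 higher and 39 lower of 5646 genes (0.992% and 0.691%), of which 42 and 24 were also called in all fibroblasts. Without *Acan*-positive cells they were 20 and 14 of 5567 (0.359% and 0.251%), with fewer cells as well. By the level of *Prg4*, fibroblasts at or above 20 per 10000 UMIs gave 84 higher and 38 lower of 4276 (1.96% and 0.889%), those below it 40 and 20 of 5271 (0.759% and 0.379%), and fibroblasts under 20 of *Ibsp* gave 116 and 68 of 5713 (2.03% and 1.19%). Of the genes called in all fibroblasts, 188 were tested outside cluster 4. There 68 were called, 2 of them in the opposite direction, and 179 kept the sign of their log2 fold change, while 9 had the opposite sign (*Chad*, *Clu*, *Col11a1*, *Crispld1*, *Cytl1*, *Ints6*, *Kcnma1*, *Prkg1* and *Sox6*).

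**Figure D2:**
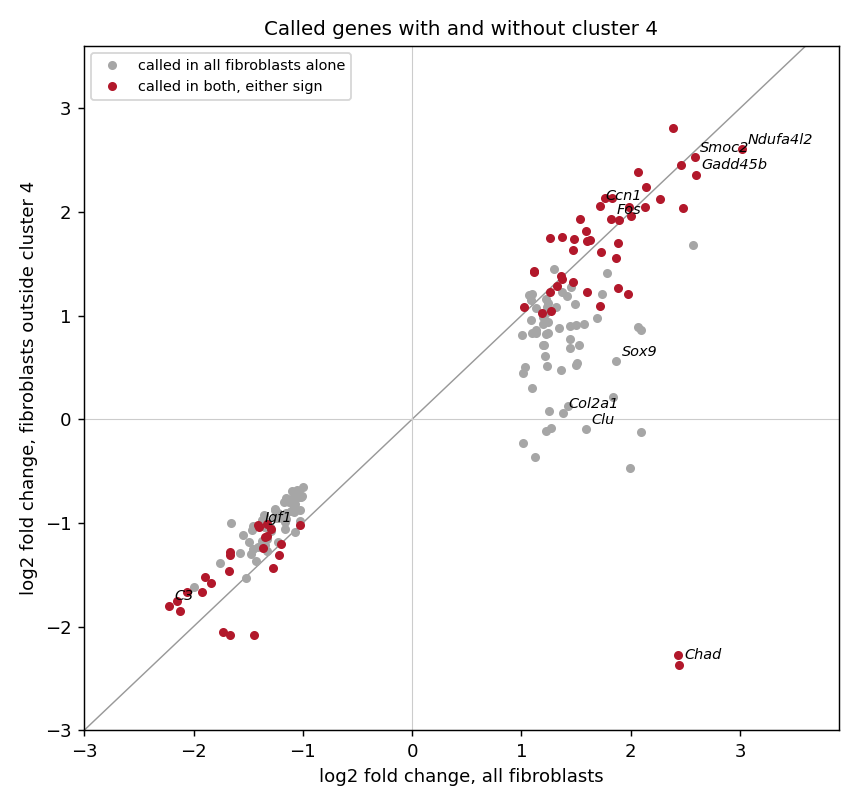
Log2 fold change of mutants over controls in all 273 fibroblasts (x axis) against that in the 228 fibroblasts outside cluster 4 (y axis), for the 188 called genes tested in both, with the diagonal drawn. The 68 red genes were called in both, among them Ndufa4l2 at 3.02 and 2.60, while Chad lies at 2.44 and -2.37.

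Among the genes tested and named, *C3* of the complement system had the largest decrease, while genes in too few cells to be tested are outside this order. This central complement component had 73.7 and 128 CPM in mutants and 399 and 610 CPM in controls (ENSMUSG00000024164.16, chromosome 17 of GRCm39 from 57510964 to 57535155). Both mutant libraries were low and the groups did not overlap, with a log2 fold change of -2.23 (standard error, SE, 0.256, edgeR, adjusted p = 4.10e-05). Outside cluster 4 it was -1.80 (edgeR, adjusted p = 1.59e-04) and without *Acan*-positive cells -1.85 (edgeR, adjusted p = 0.00532). *C4b*, which with C2 forms the classical C3 convertase, had 244 and 324 CPM against 765 and 621 CPM, a log2 fold change of -1.20 and of the same size outside cluster 4 (edgeR, adjusted p = 5.33e-04 and 0.00260). In fibroblasts at 20 or more *Prg4* per 10000 UMIs the change of *C4b* was 0.71, with the opposite sign (edgeR, adjusted p = 0.169). *Cfb*, the factor B of the alternative pathway, had 49.7 and 43.6 against 95.1 and 139 CPM, and its call was lost without mutant 2 or control 2 (edgeR, adjusted p = 0.0714 and 0.0993) and outside cluster 4 (0.0920).

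Of the 11 complement genes listed, 9 were tested, of which 3 fell and 1 rose (beside 1.44% and 2.50% of all genes tested), with a median log2 fold change of -0.70 beside 0.00 over all genes tested. Outside cluster 4 the median was -0.34, with 2 called lower (*C3* and *C4b*) and none higher. The other 5 did not pass, and 7 of the 9 had both mutant libraries below both controls, beside 31.0% of all genes tested. *Serping1*, the C1 inhibitor, had 531 and 515 CPM against 1000 and 1140 CPM, a log2 fold change of -0.95 that was under the limit on size. The gene that rose, *Clu* (clusterin, a chaperone that also inhibits the terminal complex), had 1552 and 1648 CPM against 467 and 653 CPM in all fibroblasts but 330 and 105 against 204 and 278 CPM outside cluster 4. Outside that cluster its groups overlapped and the log2 fold change was -0.10 (edgeR, adjusted p = 0.913).

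*Igf1*, the growth factor that fibroblasts supply to neighbouring tissue, had 250 and 233 CPM in mutants and 653 and 693 CPM in controls (ENSMUSG00000020053.19, chromosome 10 of GRCm39 from 87693642 to 87772904). The mutant libraries were low and close to each other. The log2 fold change was -1.40 (SE 0.167, edgeR, adjusted p = 6.13e-05), -1.04 outside cluster 4 (edgeR, adjusted p = 9.60e-04) and -1.36 without *Acan*-positive cells (edgeR, adjusted p = 0.00847). The other 5 tested genes of the IGF axis did not pass, with *Igfbp5* at 2395 and 1382 against 3111 and 3015 CPM. *Ccl19*, a chemokine of lymphoid stroma, and *Il1r1*, the receptor of interleukin 1, were called lower among the 5 tested of 19 chemokine and cytokine genes (beside 1.44% of all genes), whose median log2 fold change was -0.95. *Ccl19* had 32.1 and 61.3 against 167 and 84.8 CPM, and its call was lost without mutant 1 or control 1 (edgeR, adjusted p = 0.205 and 0.211) and outside cluster 4 (0.118). *Il1r1* had 65.7 and 69.5 against 124 and 166 CPM, and its call was lost without mutant 1, mutant 2 or control 2 (edgeR, adjusted p = 0.0606, 0.0559 and 0.138).

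*Cxcl12*, the chemokine that retains hematopoietic cells in marrow, had 353 and 447 CPM in mutants and 1087 and 563 CPM in controls, with a log2 fold change of -0.95 that did not reach the limit on size. It was highest in cluster 1, as were *C3* and *Igf1*. The share of cluster 1 in the fibroblasts also differed between the groups, and its part in these decreases was not tested.

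Of 18 genes of the adventitial type, 16 were tested, 3 fell and none rose, beside 1.44% and 2.50% of all genes tested. Their median log2 fold change was -0.69. In both mutant libraries 13 of the 16 lay below both controls, beside 31.0% of all genes tested. Outside cluster 4 the median was -0.42 and 1 was called lower, beside 0.691% of all genes tested there. *Cd34*, a sialomucin of progenitors and vessels, had 176 and 136 CPM in mutants and 293 and 410 CPM in controls, and *Ly6c1*, a surface antigen, had 399 and 367 against 787 and 956 CPM. Both pairs of groups were separate. The log2 fold change of *Cd34* was -1.10 (SE 0.214, edgeR, adjusted p = 0.00453). Its call was lost without mutant 2 (edgeR, adjusted p = 0.0691), without control 2, where the change was -0.82, and in the cells left after removal of cluster 4, whose own cells had 20.6 CPM of *Cd34* (log2 fold change -0.69, edgeR, adjusted p = 0.104). That of *Ly6c1* was -1.11 (edgeR, adjusted p = 4.58e-04), -0.95 without control 2 and -0.77 outside cluster 4 (edgeR, adjusted p = 0.0165), both under the limit on size.

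*Efemp1* (fibulin 3), listed with both the adventitial and the elastic fibre genes, had 19.2 and 35.4 CPM in mutants and 174 and 77.6 CPM in controls. It fell by 2.06 on the log2 scale (edgeR, adjusted p = 0.00234) and by 1.67 outside cluster 4 (edgeR, adjusted p = 0.0101). *Ltbp1*, which stores latent TGF-beta on microfibrils, had 93.0 and 75.0 against 182 and 274 CPM, and *Fbln1* (fibulin 1) had 60.9 and 30.0 against 103 and 97.4 CPM. The *Fbln1* call was lost without mutant 2 (edgeR, adjusted p = 0.237). These were the 3 called of 14 tested among 17 elastic fibre and microfibril genes, with a median log2 fold change of -0.49. None rose, and over all genes tested 1.44% were lower and 2.50% higher. *Efemp1* and *Fbln1* passed the filter on the share of cells through controls alone (10.9% and 17.4% of mutant against 28.1% and 27.4% of control cells). Outside cluster 4 the median was -0.12 with 1 called higher and 1 lower, and *Ltbp1* had -0.97 (edgeR, adjusted p = 0.0313), under the limit on size. *Efemp1* changed by -1.40 without control 1.

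All 24 genes for fibrillar collagens and their processing were tested, with log2 fold changes from -0.93 to 2.00 and a median of 0.13, and 1 rose. By the adjusted p alone 4 passed, among them *Plod2*, a lysyl hydroxylase, at 0.98 and *Pcolce2*, a procollagen C-proteinase enhancer, at -0.93 (edgeR, adjusted p = 0.00349 and 0.00230), and 7 genes lay above and 6 below both controls, beside 19.4% and 31.0% of all genes tested. *Col1a1* had 4314 and 5684 CPM in mutants against 3962 and 4334 CPM in controls, and its log2 fold change of 0.35 did not pass (edgeR, adjusted p = 0.160). The gene that rose, *Col12a1*, a collagen on fibril surfaces, had 154 and 313 against 95.1 and 32.5 CPM, and its call was lost without mutant 2 (log2 fold change 1.38, edgeR, adjusted p = 0.0740) and without *Acan*-positive cells (0.65, adjusted p = 0.648). *Col12a1* passed the filter on the share of cells through mutants alone (37.0% against 18.5% of cells). Of 14 pan-fibroblast genes, 13 were tested and only *Fbln1* was called lower (beside 1.44% of all genes), with a median of -0.03. Myofibroblast genes were split (beside 2.50% higher and 1.44% lower of all genes), with 2 higher (*Postn* and *Tnc*) and 2 lower (*Itga11*, a collagen-binding integrin, and *Ddr2*, a collagen receptor) of 12 tested among 19, while *Acta2*, *Tagln* and *Cnn1* were not tested. *Ddr2* had 146 and 159 against 430 and 364 CPM, and *Itga11* had 36.9 and 30.0 against 97.1 and 83.0 CPM, whose call was lost without mutant 2 and outside cluster 4 (edgeR, adjusted p = 0.0635 and 0.0666).

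Among the genes that were higher in mutants, the immediate early genes had the most calls of any list. All 21 immediate early and heat shock genes were tested, 10 rose and none fell, the median log2 fold change was 0.83, and 15 had both mutant libraries above both controls. Over all genes tested 2.50% rose and 19.4% lay above both controls. *Fos*, a subunit of the AP-1 transcription factor, had 957 and 1003 CPM in mutants and 225 and 359 CPM in controls (ENSMUSG00000021250.14, chromosome 12 of GRCm39 from 85520658 to 85524047). Its log2 fold change was 1.82 (SE 0.197, edgeR, adjusted p = 2.41e-05). It was 1.93 outside cluster 4 and 1.83 without *Acan*-positive cells (edgeR, adjusted p = 2.81e-05 and 0.00708).

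*Fosb*, another AP-1 subunit, had 208 and 211 against 57.9 and 66.8 CPM, *Junb* had 494 and 641 against 227 and 236 CPM and *Egr1*, a zinc finger factor, had 351 and 470 against 153 and 184 CPM. In each the groups were separate. *Fosb* passed the filter on the share of cells through mutants alone (37.0% against 17.8% of cells). *Nr4a1*, *Ier3*, *Dusp1*, *Btg2*, *Atf3* and *Zfp36* were called as well, with log2 fold changes of 1.10 to 1.76. *Atf3* and *Zfp36* lost the call without mutant 2 (0.86 and 0.81, edgeR, adjusted p = 0.159 and 0.198) and without control 1. Outside cluster 4, 9 of the 10 calls remained, since *Zfp36* did not pass there (edgeR, adjusted p = 0.0809), and the median of the list was 0.92. Among the fibroblasts with no *Acan*, the median was 1.00 with 2 genes called (*Fos* and *Atf3*). These genes also respond to tissue dissociation, and the time between dissection and lysis of each library was not given in the sources used here.

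Hypoxia-inducible genes rose in part. Of 12 genes for hypoxia responses and metallothioneins, 10 were tested and 5 rose (beside 2.50% of all genes tested), with a median log2 fold change of 1.02. *Pgk1* (phosphoglycerate kinase 1) had 208 and 200 CPM in mutants and 70.3 and 72.2 CPM in controls, a log2 fold change of 1.60 (SE 0.202, edgeR, adjusted p = 9.91e-05). *Ldha* (lactate dehydrogenase A) had 556 and 495 against 223 and 247 CPM, and *Bnip3*, a factor of mitophagy, had 170 and 135 against 49.6 and 37.9 CPM. In these 3 genes the controls were close to each other and well below both mutants. *Slc2a1*, the glucose carrier GLUT1, and *Vegfa*, the angiogenic growth factor, were called at lower levels and were found in 20% or more of the cells of mutants alone. *Slc2a1* had 36.9 and 35.4 against 14.5 and 16.2 CPM and lost the call with each of the 4 libraries left out (edgeR, adjusted p = 0.127 to 0.161) and with the replicate number as a block (0.0616). *Vegfa* had 65.7 and 75.0 against 6.2 and 43.3 CPM and lost it without mutant 1, mutant 2 or control 1 (edgeR, adjusted p = 0.119, 0.202 and 0.269).

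Outside cluster 4 the hypoxia list had a median of 0.34, and of the 9 genes tested only *Pgk1* and *Bnip3* were called (log2 fold changes 1.23 and 1.27, edgeR, adjusted p = 0.00802 and 0.0353), with *Ldha* at 0.94 (edgeR, adjusted p = 0.0171). Without *Acan*-positive cells none was called, and *Pgk1* had 1.25 (edgeR, adjusted p = 0.0808). Beside the list, *Ndufa4l2*, a mitochondrial protein induced by hypoxia, had 1446 and 1156 CPM in mutants and 86.8 and 247 CPM in controls (ENSMUSG00000040280.11, chromosome 10 of GRCm39 from 127350818 to 127353038). It was 8.11-fold higher in the fit (log2 fold change 3.02, SE 0.297, edgeR, adjusted p = 1.25e-05), with log2 fold changes of 2.47 without control 1 and 4.0 without control 2. Outside cluster 4 it had 838 and 412 against 69.7 and 142 CPM, a log2 fold change of 2.60 (edgeR, adjusted p = 6.89e-06), and without *Acan*-positive cells 2.51 (edgeR, adjusted p = 5.30e-04). *Slc16a3*, the lactate exporter MCT4, and *Pfkl*, a glycolytic kinase, had 89.8 and 75.0 against 12.4 and 16.2 CPM and 64.1 and 50.4 against 16.5 and 5.41 CPM. Both passed the filter on the share of cells through mutants alone.

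The promoters of the 3 listed genes that rose at higher levels show the motif shared by most of the list. ACGTG, the core of the element that hypoxia-inducible factors bind, was searched on both strands of RefSeq promoters of GRCm38.p6 from 250 bases before to 50 after the start. Of the 12 genes, 11 were matched and 9 held it, that is all 5 that rose, 3 that were tested and not called (*Mt1*, *Hif1a* and *P4ha1*) and *Egln3*, which was not tested. A gene with several RefSeq starts was counted when any 1 of its windows held the motif. The *Vegfa* match before a start was at chr17:46025164-46025413 on the minus strand. Whether that is the main start of *Vegfa* was not examined. Of all 32851 promoters 19.6% held it, and of the 4600 tested genes with a promoter 31.2%. The 250 bases before the start are given in the direction of transcription, and capitals mark ACGTG or its reverse complement CACGT, which overlap where CACGTG is written. *Pgk1* is from chrX:106186850-106187099 on the plus strand, *Ldha* from chr7:46845554-46845803 on the plus strand and *Bnip3* from chr7:138909507-138909756 on the minus strand. The matches are a description of these windows.
Pgk1: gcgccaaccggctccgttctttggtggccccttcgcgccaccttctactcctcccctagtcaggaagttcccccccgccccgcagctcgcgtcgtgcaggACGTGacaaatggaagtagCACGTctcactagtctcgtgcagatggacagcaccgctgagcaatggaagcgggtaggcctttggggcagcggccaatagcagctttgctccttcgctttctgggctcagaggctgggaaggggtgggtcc
Ldha: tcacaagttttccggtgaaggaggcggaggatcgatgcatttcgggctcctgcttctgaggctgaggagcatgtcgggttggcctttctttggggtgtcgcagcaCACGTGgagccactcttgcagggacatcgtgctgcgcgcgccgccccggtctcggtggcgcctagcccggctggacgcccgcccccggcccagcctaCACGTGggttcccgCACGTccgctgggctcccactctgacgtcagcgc
Bnip3: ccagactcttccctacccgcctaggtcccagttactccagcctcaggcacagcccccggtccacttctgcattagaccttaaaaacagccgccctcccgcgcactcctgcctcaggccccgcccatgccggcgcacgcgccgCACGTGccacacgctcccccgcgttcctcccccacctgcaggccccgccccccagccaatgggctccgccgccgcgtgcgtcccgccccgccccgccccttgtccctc

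**Figure D3:**
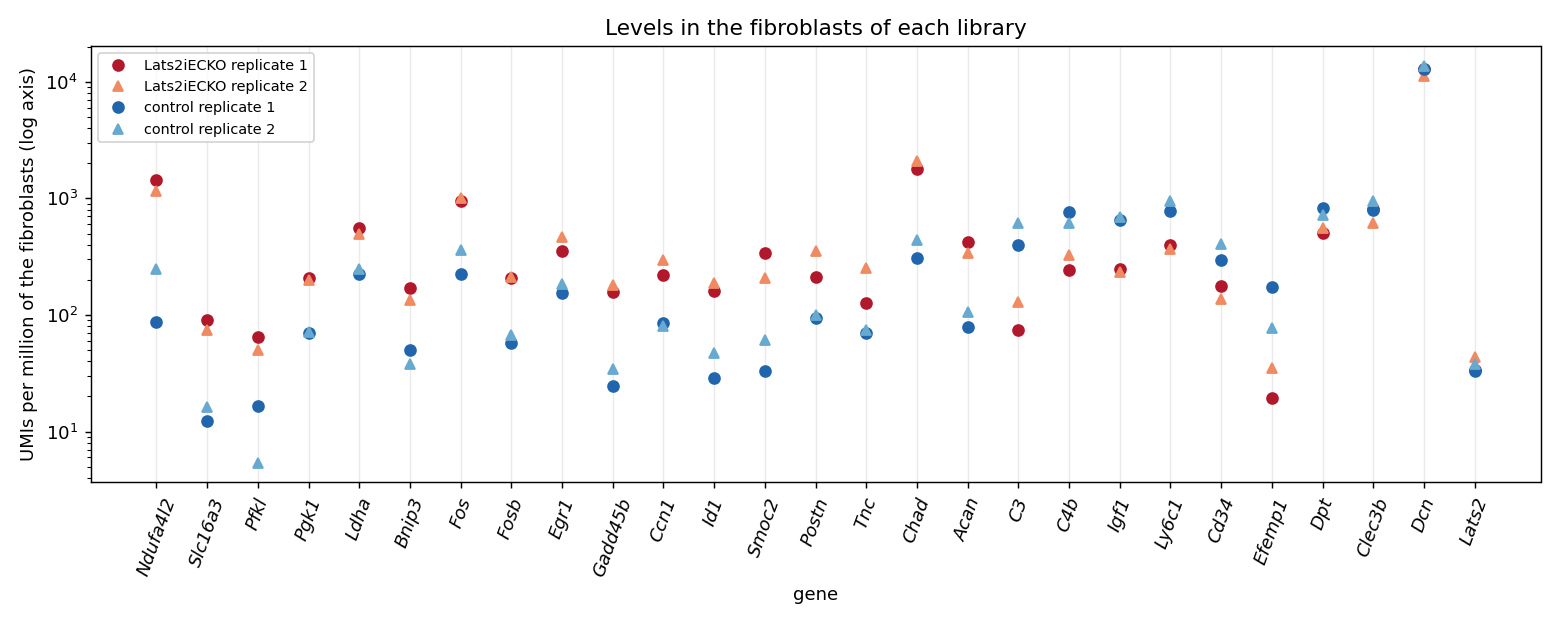
Level of 27 genes in the fibroblasts of each library, in CPM on a log axis (y axis), with 1 point per library. Mutant points lie above control points from Ndufa4l2 to Acan and below them for C3, C4b, Igf1, Ly6c1, Cd34 and Efemp1, while Dcn, Clec3b and Lats2 overlap.

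Matricellular genes, whose products modulate cell contact with matrix, rose for 5 of 13 tested among 14 (beside 2.50% of all genes tested), with a median log2 fold change of 0.58. *Ccn1*, an integrin ligand and a target of YAP1/TAZ, had 220 and 296 CPM in mutants and 84.7 and 81.2 CPM in controls. Its log2 fold change was 1.72 (SE 0.215, edgeR, adjusted p = 8.74e-05), 2.06 outside cluster 4 (edgeR, adjusted p = 5.46e-04) and 2.46 without *Acan*-positive cells (edgeR, adjusted p = 0.0189). *Postn* (periostin) had 212 and 354 against 95.1 and 99.2 CPM, and *Tnc* (tenascin C) had 127 and 251 against 70.3 and 74.0 CPM. Both had log2 fold changes of 1.73 outside cluster 4 (edgeR, adjusted p = 2.88e-05 and 2.91e-04), but without *Acan*-positive cells neither was called (1.17 and 1.81, edgeR, adjusted p = 0.130 and 0.0525). *Tnc* lost its call without mutant 2 (log2 fold change 0.88). *Thbs1* lost its call without mutant 1 (edgeR, adjusted p = 0.0737), and *Spp1* (osteopontin), at 164 and 718 against 157 and 117 CPM, without mutant 2 (log2 fold change 0.33, edgeR, adjusted p = 0.473) and outside cluster 4 (adjusted p = 0.0634). *Thbs1* had 2.17 and 49.2 against 36.0 and 13.6 CPM outside cluster 4, where it was not tested.

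Of 22 YAP1/TAZ targets, 14 were tested and 3 rose (*Ccn1*, *Gadd45b* and *Nt5e*), beside 2.50% of all genes tested. The median of the list, however, was 0.04. In it 5 genes lay above and 5 below both controls, beside 19.4% and 31.0% of all genes tested. *Gadd45b*, a stress-induced growth arrest gene, had 159 and 183 CPM in mutants and 24.8 and 34.3 CPM in controls, a log2 fold change of 2.59 (SE 0.251, edgeR, adjusted p = 1.25e-05) and 2.36 outside cluster 4 (edgeR, adjusted p = 7.58e-04). *Gadd45b* passed the filter on the share of cells through mutants alone (37.0% against 12.6% of cells). *Nt5e*, which makes adenosine, had 112 and 139 against 45.5 and 52.3 CPM, and outside cluster 4 its log2 fold change was 0.68 (edgeR, adjusted p = 0.489).

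In the TGF-beta and BMP axis 2 of 16 tested genes rose (beside 2.50% of all genes), both of them the inhibitors of differentiation that BMP signals induce. *Id1* had 162 and 189 CPM in mutants and 28.9 and 46.9 CPM in controls, a log2 fold change of 2.27 (SE 0.25, edgeR, adjusted p = 2.82e-05) and 2.12 outside cluster 4 (edgeR, adjusted p = 0.00275), but 1.40 without *Acan*-positive cells, where it was not called (edgeR, adjusted p = 0.224). *Id1* passed the filter on the share of cells through mutants alone (33.3% against 12.6% of cells). *Id2* had 290 and 352 against 116 and 134 CPM, and its change outside cluster 4 was 0.77 (edgeR, adjusted p = 0.0707). The 3 tested of 14 genes of the Wnt axis were split. *Wif1*, a secreted Wnt inhibitor, had 295 and 369 against 149 and 103 CPM in all fibroblasts. Outside cluster 4 it had 43.4 and 12.3 against 67.4 and 21.4 CPM and was not tested. It passed the filter on the share of cells through mutants alone (22.5% against 17.0% of cells). *Sfrp4*, another Wnt antagonist, had 358 and 206 against 420 and 1086 CPM, so control 2 stood apart, and its call was lost without control 2 and without mutant 2 (log2 fold changes -0.49 and -1.01, edgeR, adjusted p = 0.324 and 0.212) and outside cluster 4 (-0.93, adjusted p = 0.123).

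*Smoc2*, a calcium-binding matrix protein, and *Lpl*, the lipase of triglyceride-rich lipoproteins, rose among genes of the *Col15a1*-type fibroblast list. They were 2 of its 9 tested genes, beside 2.50% of all genes tested, and its median was -0.06. *Smoc2* passed the filter on the share of cells through mutants alone (31.9% against 12.6% of cells). *Smoc2* had 343 and 206 CPM in mutants and 33.1 and 61.3 CPM in controls, a log2 fold change of 2.59 (SE 0.298, edgeR, adjusted p = 4.10e-05) and of 2.53 outside cluster 4. *Lpl* had 106 and 136 against 41.3 and 46.9 CPM, and 1.93 outside cluster 4 against 1.54 in all fibroblasts (edgeR, adjusted p = 8.73e-05 and 9.84e-04). *Timp1*, an inhibitor of matrix proteases, rose as the only call of 7 tested protease and inhibitor genes, beside 2.50% of all genes tested. Its log2 fold change was 0.48 without mutant 1 and 0.93 without control 1, both under the limit on size. For the next list, 1.44% of all genes tested were lower. Among transcription factors of fibroblasts, *Ebf2* was called lower of 9 tested, at 80.2 and 87.2 against 134 and 256 CPM, and lost the call without mutant 1, mutant 2 or control 2 (edgeR, adjusted p = 0.102, 0.0875 and 0.317) and outside cluster 4 (0.159). *Ebf1* had 1018 and 1056 against 1914 and 2135 CPM, with a log2 fold change of -0.88. None of 4 tested interferon response genes and none of 6 genes for secreted antioxidants was called, and neither was any of the 3 tested sex-linked genes.

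Of 11 tendon and ligament genes 7 were tested and 2 rose (beside 2.50% of all genes), *Chad* and *Fmod*, while outside cluster 4 none rose and *Chad* was lower. The cartilage proteoglycan *Acan* had 426 and 338 CPM in mutants and 78.5 and 106 CPM in controls, and 89.0 and 51.3 against 38.2 and 33.0 CPM outside cluster 4. *Acan* was found in 34.9% and 41.3% of mutant and 20.3% and 16.9% of control fibroblasts, against 10.7% to 16.5% of *Cdh5*-positive barcodes, and in 23% and 36.1% against 12.1% and 13.2% of fibroblasts thinned to 3000 UMIs. *Sox9*, the transcription factor of chondrocytes, had 271 and 267 against 72.3 and 83.0 CPM, with log2 fold changes of 1.87 in all fibroblasts and 0.56 outside cluster 4 (edgeR, adjusted p = 2.41e-05 and 0.513). Among small leucine-rich proteoglycans 3 of 9 tested genes rose (beside 2.50% of all genes), *Omd* (osteomodulin), *Ogn* (osteoglycin) and *Fmod* (fibromodulin). Outside cluster 4 *Ogn* and *Fmod* were not called (edgeR, adjusted p = 0.349 and 0.365) and *Omd* was not tested. *Fmod* also lost its call without mutant 2 or control 2 and *Ogn* without control 1.

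*Chad*, a cartilage protein that binds collagen and integrins, changed sign with the cells included. In all fibroblasts it had 1800 and 2089 CPM in mutants and 310 and 444 CPM in controls, a log2 fold change of 2.44 (edgeR, adjusted p = 5.37e-07). Outside cluster 4 it had 36.9 and 30.8 against 218 and 150 CPM, a log2 fold change of -2.37 (edgeR, adjusted p = 1.26e-05), and without *Acan*-positive cells -0.72 (edgeR, adjusted p = 0.447). *Chad* and *Acan* were left out of the clustering, but their levels follow the cluster, so these values describe the cells and not a separate sample.

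**Figure D4:**
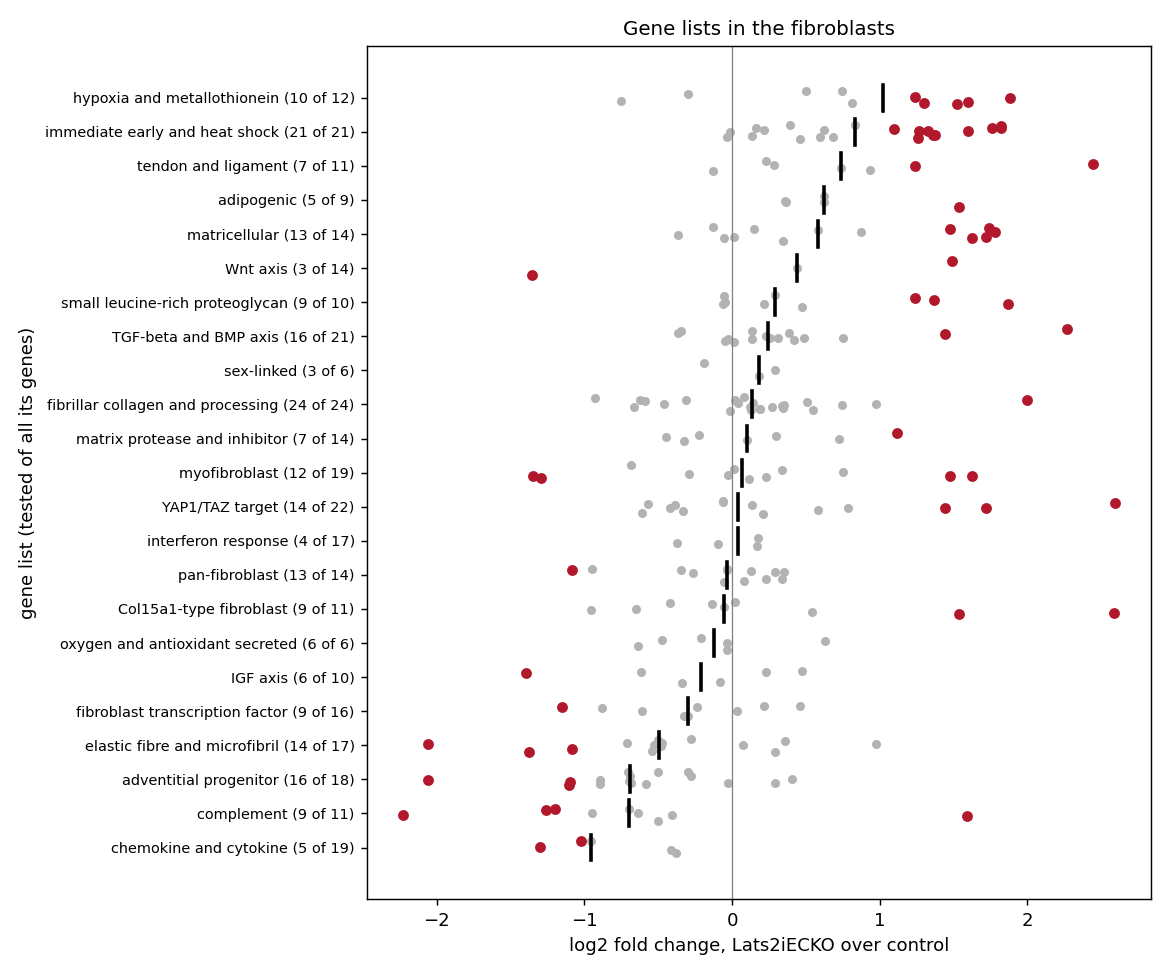
Log2 fold change of mutants over controls (x axis) for each tested gene of 23 lists (y axis, tested of all genes in parentheses). Red points were called, grey points were not, and black bars are medians, which run from 1.02 for the hypoxia list to -0.95 for the chemokine and cytokine list.

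Among the genes tested that the rule for names allows, *Frzb* had the largest increase. It passed the filter on the share of cells through mutants alone, and the order is a description. Of the 12 largest increases, only *Ndufa4l2* was found in 20% or more of the cells of both genotypes. *Frzb*, a Wnt antagonist of cartilage, had 643 and 333 CPM in mutants and 0 and 50.5 CPM in controls, in 21.7% of mutant and 2.96% of control cells, with a log2 fold change of 4.26 (SE 0.527, edgeR, adjusted p = 8.00e-05, but 0.694 with DESeq2). Control 1 had no UMI of it, and the fitted change was 3.33 without control 1, while without control 2 no fold is given, since the only control left is at 0. Outside cluster 4 it had 2.17 and 16.4 CPM in mutants and 0 in both controls. *Nrtn* (the growth factor neurturin), *Scrg1*, *Chadl*, *Tnfrsf11b* (osteoprotegerin, the decoy receptor of RANKL) and *Rbp4* were also among the 12 largest increases and were not tested outside cluster 4. With DESeq2 *Nrtn* and *Rbp4* were not called (adjusted p = 0.203 and 0.238), and their log2 fold changes of 3.29 and 2.55 became 2.49 and 1.84 without control 1 and 5.78 and 4.14 without control 2. In the same order *Chadl* moved from 2.68 to 2.05 and 4.09, and *Pfkl* from 2.48 to 3.42 and 1.86. *Tnfrsf11b*, for example, had 367 and 283 against 41.3 and 68.6 CPM in all fibroblasts and 86.8 and 20.5 against 24.7 and 46.6 CPM there. Also among the 12 were *Ndufa4l2*, *Gadd45b*, *Smoc2*, *Slc16a3* and *Pfkl*, and of these only *Slc16a3* was not called outside cluster 4 (edgeR, adjusted p = 0.0753).

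The largest decreases after *C3* were those of *Csmd1*, a membrane protein with complement-control domains, *Efemp1*, *Tmcc3*, *Mdfic2*, *Scg3*, *Bglap2*, *Sned1*, *Emc1*, *Adgrd1*, *Pde5a* and *Lepr*. This order is again a description, since all of these but *Bglap2* and *Sned1* passed the filter on the share of cells through controls alone. *Csmd1* had 81.8 and 173 CPM in mutants and 637 and 574 CPM in controls, a log2 fold change of -2.15 (SE 0.248, edgeR, adjusted p = 4.12e-05) and of -1.76 outside cluster 4 (edgeR, adjusted p = 1.40e-04). *Mdfic2* had 36.9 and 43.6 against 153 and 155 CPM, and *Sned1*, a matrix protein, had 117 and 228 against 535 and 635 CPM. *Lepr*, the leptin receptor of reticular cells, had 8.02 and 27.3 against 59.9 and 63.2 CPM and lost its call without mutant 1 and outside cluster 4 (edgeR, adjusted p = 0.126 and 0.251). *Tmcc3*, *Emc1* and *Scg3* also lost theirs without at least 1 library, *Tmcc3* and *Emc1* without mutant 1, mutant 2 or control 2 (edgeR, adjusted p = 0.0714 to 0.261) and *Scg3* without mutant 2 or control 1 (edgeR, adjusted p = 0.145 and 0.0600).

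Some differences moved with free RNA. *Bglap2*, an osteocalcin gene, had 57.7 and 84.5 against 265 and 240 CPM, of which free RNA could supply 52.1 and 41.8 in mutants and 135 and 152 CPM in controls. Its log2 fold change was -1.73, and -2.05 with free RNA subtracted, where it was still called (edgeR, adjusted p = 0.0115). The hemoglobin genes rose, *Hbb-bs* from 70.3 and 97.4 to 335 and 369 CPM, where free RNA could supply 75.2 and 90.6 against 294 and 366 CPM. The hemoglobin counts entered the estimate of free RNA, so these 2 sets of values are not independent. In all, free RNA was put at 1.25% and 1.45% of the UMIs of mutant and 1.59% and 1.72% of those of control fibroblasts.

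To see where the genotype effect in the fibroblasts differed from that in other stroma, it was compared in 1 fit with 4437 reticular stromal cells (462 and 565 in mutants, 1713 and 1697 in controls) and with 805 *Angptl7*/*Slurp1* cells (179, 203, 209 and 214). Over 7509 genes, the log2 fold change was larger by at least 1 in the fibroblasts than in reticular cells for 56 genes (0.746%) and smaller for 37 (0.493%). Against *Angptl7*/*Slurp1* cells it was larger for 47 (0.626%) and smaller for 19 (0.253%). Of the 230 genes called in the fibroblasts, 38 were larger and 15 smaller against reticular cells, and 42 and 10 against *Angptl7*/*Slurp1* cells. The 230 were chosen by their change in the same fibroblast sums, which favours such differences, so these counts are a description. The remainder of the 230 was not shown to differ between the classes.

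Among the immediate early genes, *Fos* had 1196 and 1139 CPM in mutant and 466 and 471 CPM in control reticular cells, a log2 fold change of 1.36, and its difference from the fibroblasts of 0.51 (SE 0.197) was not called (edgeR, adjusted p = 0.300). In *Angptl7*/*Slurp1* cells it had 1525 and 1688 CPM in mutants and 1778 and 1974 CPM in controls, and the log2 fold change in the fibroblasts was larger by 1.99 (SE 0.197, edgeR, adjusted p = 7.18e-04). Of the list, 6 of 21 genes (*Fos*, *Fosb*, *Junb*, *Egr1*, *Dusp1* and *Btg2*) were called with larger effects than in *Angptl7*/*Slurp1* cells, beside 0.626% of all genes. None was called against reticular cells, beside 0.746% larger and 0.493% smaller of all genes. This contrast between the 2 classes was not itself tested.

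Of 10 complement genes tested, 3 had a lower and 1 a higher log2 fold change in the fibroblasts than in reticular cells. Of all genes these were 0.493% and 0.746%. Against *Angptl7*/*Slurp1* cells 4 were lower and 1 was higher, beside 0.253% and 0.626% of all genes. Lower here means more negative. The higher one was *Clu* against both classes, by 1.54 and 1.59 (edgeR, adjusted p = 0.00124 and 0.00129). Outside cluster 4 the log2 fold change of *Clu* in the fibroblasts was -0.10 (edgeR, adjusted p = 0.913), and the classes were not compared there. *C3* changed by -0.63 in reticular cells, where it had 128 and 130 against 204 and 207 CPM, and the difference of the effect in the fibroblasts from it was -1.56 (SE 0.283, edgeR, adjusted p = 0.0173). *C4b* had 413 and 423 against 418 and 405 CPM in reticular cells, and the differences of the fibroblasts were -1.22 against reticular and -1.38 against *Angptl7*/*Slurp1* cells (edgeR, adjusted p = 0.0350 and 0.0287). *Igf1* differed from *Angptl7*/*Slurp1* cells by -1.65 (edgeR, adjusted p = 0.0259) and from reticular cells by -0.90, under the limit on size. *Ndufa4l2*, which had 1923 and 1872 against 1357 and 1204 CPM in *Angptl7*/*Slurp1* cells, rose more in the fibroblasts by 2.43 (SE 0.33, edgeR, adjusted p = 0.00481), and its difference from reticular cells of 1.03 was not called (edgeR, adjusted p = 0.232). *Ccn1*, *Gadd45b* and *Smoc2* were larger in the fibroblasts than in *Angptl7*/*Slurp1* cells by 1.66, 2.22 and 2.15, and *Gadd45b* and *Smoc2* than in reticular cells by 1.56 and 1.93.

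**Figure D5:**
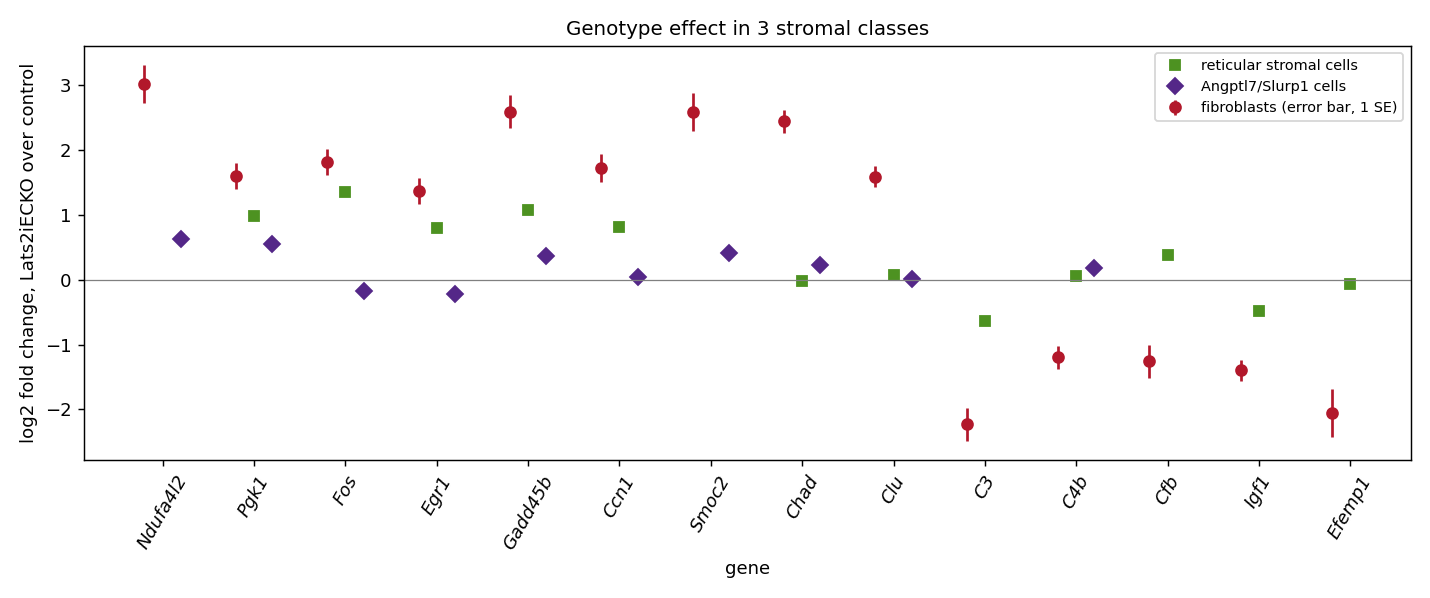
Log2 fold change of mutants over controls (y axis) for 14 genes (x axis) in the fibroblasts (circles, error bar 1 SE), reticular stromal cells (squares) and Angptl7/Slurp1 cells (diamonds), each class fitted on its own. A class without a symbol did not have that gene among its tested genes, and Fos stands at 1.82, 1.36 and -0.17.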

How the data were processed

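The authors trimmed reads of 4 10x libraries with cutadapt 3.5, aligned them with STARsolo 2.7.10a to GRCm39 (mm39), with transgene sequences added to the annotation, and deposited unfiltered expected counts (estimated UMI counts) per gene and barcode, over exons and introns and not normalized. Expectation maximization of multi-gene reads left 9.09% to 9.95% of entries not whole. No deposited cell annotation was used. The rule for the fibroblasts, the gene lists and the comparisons were chosen with earlier results of these data known.

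The expected counts of each class were added up by library and rounded, giving 484007 to 733967 UMIs for the fibroblasts. Tests used edgeR 4.0.16 (quasi-likelihood, TMM, R 4.3.3) on genes that passed filterByExpr and were found in 20% or more of the fibroblasts of either genotype, with Benjamini-Hochberg adjustment. Library was the replicate, and classes were compared in 1 fit with library as a block. In counts simulated for the fibroblast comparison over 5840 genes, edgeR called 89 of 100 genes changed by 1.5 log2 units, 100 of 100 changed by 3 and 5 of 5640 unchanged genes, and DESeq2 1.42.0 called 55, 89 and 1. Reticular stromal cells had at least 3 UMIs of *Adipoq* and *Lepr*, and *Angptl7*/*Slurp1* cells at least 3 of these genes, under 3 of the fibroblast genes and no *Adipoq*. Both had no *Cdh5* or *Ptprc*. Clusters were made with scanpy 1.11.5 (1500 variable genes, 15 components, resolution 0.6), without 546 genes at an adjusted p up to 0.05 in the fit with or without the filter on low counts. Scrublet, at 0.8% per 1000 barcodes, called 7 of the 273 fibroblasts doublets, which were kept. Free RNA was estimated from neutrophil and erythroid markers in barcodes of 10 to 100 UMIs. Intervals cover counting error only, and a count of 0 allows up to 3. Gene positions are from GENCODE on GRCm39.

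Genes named are those of the rule, marker lists, *Lats2* and Cre, the 12 largest called changes in each direction without overlap of the groups, the called and up to 3 largest changes of each list, and the 5 largest differences between classes in each direction. Any others were named after their values were seen. Alternatives were other normalization, filters, cell rules, DESeq2, a replicate block and each library left out. Some genes that this rule names are not reported here.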

Additional observations from a re-analysis of the deposited data

Results flagged for a closer look

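The genotype effect differed between the fibroblasts and other stromal classes in a test of the difference itself. Against reticular stromal cells 56 genes had a larger and 37 a smaller log2 fold change in the fibroblasts, and against *Angptl7*/*Slurp1* cells 47 had a larger and 19 a smaller one. All tests in this part are edgeR quasi-likelihood tests of the difference with Benjamini-Hochberg adjustment, and values are differences on the log2 scale, fibroblasts minus the other class. Of the 20 differences named here, 3 were called with each library left out (*Grem1* and *Fndc1* against reticular cells and *Tnfrsf11b* against *Angptl7*/*Slurp1* cells) and 17 lost the call without at least 1 library. Fitted differences of genes at a few UMIs depend on the prior count. *Grem1*, *Lgr6*, *Ptx3*, *Egln3*, *Angpt2*, *Trf*, *Ggt5* and *Pla1a* did not pass the filters of the test in the fibroblasts alone. The fits of classes were not rerun without cluster 4, whose share of the fibroblasts differed between the groups. Outside it *Tnfrsf11b* had 86.8 and 20.5 against 24.7 and 46.6 CPM, and the groups overlapped.

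*Grem1* (gremlin 1, a BMP antagonist) had the largest positive difference from both classes, 5.83 from reticular and 4.30 from *Angptl7*/*Slurp1* cells. The fibroblasts held 59 and 100 UMIs of it in the mutant libraries and 2 and 0 in the controls, a ratio of 60.8 with an exact 95% counting interval of 16.6 to 506. Reticular cells had 330 and 317 CPM in mutants and 324 and 272 CPM in controls. The difference from reticular cells was called with each library left out, and that from *Angptl7*/*Slurp1* cells was lost without mutant 2 or control 2 (adjusted p = 0.103 and 0.139).

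*Lgr6*, a receptor of R-spondins, had 67.3 and 76.3 CPM in mutant and 4.13 and 19.8 CPM in control fibroblasts, with differences of 3.01 from reticular and 2.76 from *Angptl7*/*Slurp1* cells. Against reticular cells *Acp5* (a tartrate-resistant acid phosphatase) differed by 3.99, *Chadl* by 3.11 and *Ptx3* (pentraxin 3) by 2.95. With free RNA subtracted *Acp5* and *Chadl* were not called (adjusted p = 0.0694 and 0.103). Free RNA was put at 2.44% and 2.15% of the UMIs of mutant reticular cells and 7.90% and 7.60% of those of controls. *Ptx3* had 44.9 and 24.5 against 4.13 and 3.61 CPM in the fibroblasts and 125 and 111 against 107 and 92.5 CPM in reticular cells. Against *Angptl7*/*Slurp1* cells *Egln3*, the prolyl hydroxylase that acts on hypoxia-inducible factors, differed by 3.98, *Nrtn* by 2.93 and *Tnfrsf11b* by 2.54. *Egln3* had 12 and 15 UMIs in mutant and 0 and 1 in control fibroblasts, a ratio of 20.6 with a counting interval of 3.40 to 845. With free RNA subtracted its difference was not called (adjusted p = 0.0513). *Tnfrsf11b* had 229 and 208 UMIs in mutant and 20 and 38 in control fibroblasts (adjusted p = 2.40e-04, and 0.00194 to 0.00826 with each library left out).

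On the other side, *Angpt2* (angiopoietin 2) differed by -4.64 from reticular and -6.61 from *Angptl7*/*Slurp1* cells, but it had 0 and 1 UMIs in mutant and 5 and 7 in control fibroblasts, a ratio of controls over mutants of 15.7 with a counting interval of 2.32 to 671. *Trf* (transferrin) differed by -2.98 and -3.68, with 6.41 and 5.45 against 39.3 and 30.7 CPM in the fibroblasts. With free RNA subtracted neither difference of *Trf* was called (adjusted p = 0.0843 and 0.05003). Against reticular cells *Fndc1* differed by -2.22, *Ggt5* by -2.15 and *Pla1a* by -2.02. Of these *Fndc1* had 263 and 316 against 417 and 484 CPM in the fibroblasts and 47.8 and 59.9 against 15.8 and 18.6 CPM in reticular cells. *Ggt5* was not called with free RNA subtracted (adjusted p = 0.0836). Against *Angptl7*/*Slurp1* cells *Cygb* (cytoglobin) differed by -3.26, *Adamts12* by -3.12 and *C1s1*, a serine protease of the classical complement pathway, by -2.11. *Cygb* had 77.0 and 87.2 against 118 and 123 CPM in the fibroblasts, where its log2 fold change of -0.46 was not called. In *Angptl7*/*Slurp1* cells *Cygb* had 6.01 and 4.05 against 0.372 and 1.07 CPM. There 3 UMIs stand for 1.12 and 1.07 CPM in controls. *Adamts12* had 28.9 and 57.2 against 101 and 90.2 CPM in the fibroblasts and 8.26 and 6.76 against 1.86 and 1.79 CPM in those cells. *C1s1* had 125 and 155 against 182 and 213 CPM in the fibroblasts and 7.88 and 9.12 against 2.23 and 3.22 CPM in *Angptl7*/*Slurp1* cells.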

How the results depend on the processing

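The 146 higher and 84 lower genes became 80 and 28 with DESeq2, 281 and 126 without the filter on low counts, 95 and 34 at 5 UMIs and 96 and 64 at 2 UMIs of the marker genes, and by the adjusted p alone 132 genes were lower. Settings added after the data were seen gave 56 and 39 outside cluster 4, 20 and 14 without *Acan*-positive cells, 40 and 20 in fibroblasts under 20 *Prg4* per 10000 UMIs and 84 and 38 in those at or above it, and 116 and 68 without fibroblasts at 20 or more *Ibsp* per 10000 UMIs, with fewer cells in each. With each library left out in turn, 110 to 150 genes were higher and 50 to 116 lower. The differences from reticular cells numbered 23 to 43 larger and 8 to 26 smaller, and those from *Angptl7*/*Slurp1* cells 18 to 30 and 3 to 8.

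Of the 79 called genes that were named, none reversed when 1 library was left out. Reversals were *C4b* (0.71), *Ebf2* (0.65) and *Fmod* (-0.54) in *Prg4*-high fibroblasts, *Clu* (-1.19), *Spp1* (-0.69), *Chad* (-0.72), *Ibsp* (-2.23) and *Col2a1* (-0.033) without *Acan*-positive cells, *Clu* (-0.10) and *Chad* (-2.37) outside cluster 4, and *Bglap* (0.48) with free RNA subtracted; the cause was not tested. *Col2a1* and *Bglap* are limited by the rule and their values are not read as results. With the replicate number of the labels as a replicate block, 142 genes were higher and 81 lower, and of the 79 genes only *Slc2a1* lost its call. Deviations of samples with the same number had a correlation of -0.024 over 5840 genes. With 2 libraries per genotype both pairs give this same value, so it is 1 comparison. It cannot tell whether samples with the same number shared a batch. The share of fibroblasts kept its direction under every setting run, except that its libraries overlapped after thinning, and no setting can give an exact p under 0.33. None of these settings left the reticular stromal cells out of the barcodes counted. A fit of *Pi16*-positive fibroblasts alone was not run, since the libraries hold 3, 2, 4 and 12 such cells.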
